A study of Mus musculus with 12 samples.

Results

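The albumin gene family and a pair of reported repressors of Afp were followed from embryonic liver cells to adult hepatocytes. The family members were Alb, Afp, Afm and Gc, and the repressors were Zhx2 and Zfhx3. They were chosen by name and matched to their Ensembl identifiers in the count table, so that 6 of its 53715 genes were described. All 6 passed the filter of more than 10 counts in any library, which left 17779 genes to test.

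RNA was sequenced from 12 libraries, 4 biological replicates in each of 3 groups, all from mice of the strain C57BL/6JOlaHsd. Hepatoblasts were E14.5 liver cells selected on magnetic beads by their surface protein Dlk1 and lysed without culture, each isolation being a pool of embryonic livers. By the study's methods, cells selected in this way at E14.5 include some positive for the bile duct marker Sox9. Diff. hepatocytes were cells of the same selection kept for 4 days on fibronectin in a medium with serum, insulin, transferrin, selenium, dexamethasone and Matrigel. Mature hepatocytes were prepared by collagenase perfusion from males of 8 to 12 weeks and lysed without culture, so that age, sex, isolation method and culture cannot be told apart from the groups.

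Members of the albumin family are secreted carrier proteins that the liver makes in large amounts. Alb encodes albumin, the main protein of adult plasma and a carrier of fatty acids, hormones and drugs. Afp encodes alpha-fetoprotein, its counterpart in fetal plasma, which is shut off in the liver after birth and returns in liver regeneration and liver cancer. Afm encodes afamin, a carrier of vitamin E and of lipid-modified Wnt proteins, and Gc encodes the vitamin D-binding protein, which also captures actin released from damaged cells. Zhx2, a zinc finger and homeobox protein, is known from mouse strains whose defective copy leaves Afp high in the adult liver. Zfhx3, also called ATBF1, is a very large zinc finger and homeobox protein first described as a repressor at an enhancer of the human AFP gene.

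In the mouse assembly GRCm38, Alb (ENSMUSG00000029368), Afp (ENSMUSG00000054932) and Afm (ENSMUSG00000029369) lie head to tail on the plus strand of chromosome 5, at chr5:90460897-90476602, chr5:90490737-90508907 and chr5:90518932-90553543. Gc (ENSMUSG00000035540) lies on the minus strand of the same chromosome at chr5:89417522-89457898. Zhx2 (ENSMUSG00000071757) is at chr15:57694665-57839832 and Zfhx3 (ENSMUSG00000038872) at chr8:107942644-108961630, both on the plus strand. Counts were made over the exons of each gene. No 75-base stretch of the transcripts of these 6 genes occurred in a transcript of another gene, and only Afm overlapped another exon, by 108 bases of Gm42109 on the opposite strand.

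The promoters of Alb, Afp and Afm are shown with matches to short motifs marked. The sequences are the bases before the RefSeq start of each gene in GRCm38.p6, read 5′ to 3′ on the strand of the gene, with Afm cut short where another annotation already starts its transcript. They cover chr5:90460670-90460869, chr5:90490514-90490713 and chr5:90518749-90518931 on the plus strand. Capitals mark CCAAT, bound by the NF-Y complex, and TTGCNNAA, a form of the C/EBP element, each on either strand.
Alb: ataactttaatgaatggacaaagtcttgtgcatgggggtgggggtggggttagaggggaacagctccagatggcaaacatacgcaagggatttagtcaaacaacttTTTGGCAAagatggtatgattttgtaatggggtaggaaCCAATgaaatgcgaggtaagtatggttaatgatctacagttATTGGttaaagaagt
Afp: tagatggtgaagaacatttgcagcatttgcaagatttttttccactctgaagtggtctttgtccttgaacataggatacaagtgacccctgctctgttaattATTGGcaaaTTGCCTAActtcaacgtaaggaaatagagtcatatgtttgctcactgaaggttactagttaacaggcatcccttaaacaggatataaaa
Afm: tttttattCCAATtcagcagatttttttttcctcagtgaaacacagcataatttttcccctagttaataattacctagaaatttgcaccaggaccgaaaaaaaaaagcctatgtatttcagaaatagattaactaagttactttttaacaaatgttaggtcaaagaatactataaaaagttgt
Positions are counted from the RefSeq starts, and the starts of Alb and Afp given above lie further downstream. In the 200 bases before the RefSeq start, CCAAT was present 2 times in Alb, beginning at bases -56 and -15. It was present 1 time each in Afp at -98 and in Afm at -192. It occurred in 29.3% of 32851 RefSeq promoter windows of the same length. TTGCNNAA was present 1 time in Alb at -94 and 1 time in Afp at -89, and in 7.47% of all windows. No marked stretch shared bases with another. The windows of Gc and of Albfm1, a further family gene that follows Afm, held neither. A match describes letters and was not measured as a bound site. TATAAA, the TATA box motif, was also searched and is not marked. It began at -7 in Afp, -30 in Afm and -23 in Albfm1 and was absent from Alb and Gc. It occurred in 9.96% of all windows. Sites of further factors, such as the nuclear factor I proteins described below, were not searched for, and such factors may bind the same letters. Zhx2 and Zfhx3 were not searched.

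The counts on genes summed to between 19581551 and 25216977 in each library. Levels are given as CPM, the counts scaled to a common library size, after scaling the library sizes by TMM, with factors of 1.23 to 1.44 for hepatoblasts, 1.03 to 1.08 for Diff. and 0.677 to 0.778 for mature hepatocytes. Of 8 listed hepatocyte markers, Alb among them, the comparison with hepatoblasts called 7 higher in the cultured cells, Alb being the exception, and 8 higher in the adult cells. Of 6 listed hepatoblast markers, Afp among them, it called 5 lower in the cultured cells, H19 being the exception, and 6 lower in the adult cells. Dlk1, the protein by which the hepatoblasts were selected, is 1 of the 6. Beside these and the other marker counts of this paragraph, 14.9% of all genes tested were called higher and 14% lower in the cultured cells. In the adult cells the shares were 20.1% and 24.7%. Markers of other cells were present. The summed level of 11 erythroid genes was 381 to 3116 CPM among hepatoblasts, 7.73 to 30.4 CPM among Diff. hepatocytes and 135 to 185 CPM among mature hepatocytes, where Alas2 alone was at 151 ± 19.8 CPM (SD, n = 4) and Gata1 had 0 counts. Hepatoblast replicate 1 held the highest erythroid sum, and also the highest sums of 10 macrophage genes (331 CPM) and 8 endothelial genes (138 CPM) among hepatoblasts. The same library held the lowest CPM of all 6 genes among hepatoblasts, and without it 3 and 5 of them were called in Diff. and mature hepatocytes against hepatoblasts, as with it. Other marker sums also differed between the groups. The 9 mesenchymal genes summed to 761 to 1355 CPM among hepatoblasts, 1269 to 3230 CPM after culture and 62.1 to 83.2 CPM in the adult cells. The 5 bile duct genes summed to 12.9 to 15.1 CPM, 69.95 to 213 CPM and 15.4 to 40.7 CPM in the same order, and the 8 endothelial genes to 34.5 to 138 CPM, 4.89 to 10.7 CPM and 132 to 235 CPM. The macrophage sums of the 3 groups overlapped. Against hepatoblasts, 4 of the 9 mesenchymal and 3 of the 5 bile duct genes were higher and 7 of the 8 endothelial genes lower in the cultured cells. In the adult cells, 1 mesenchymal gene was higher and 7 were lower, 1 bile duct gene was higher and 1 lower, and 4 endothelial genes were higher. Diff. hepatocyte replicate 1 held the highest mesenchymal and bile duct sums of its group. The part of these cells in the results was not tested. In such bulk libraries, fewer cells of a type and less RNA per cell cannot be told apart.

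**Figure D1:**
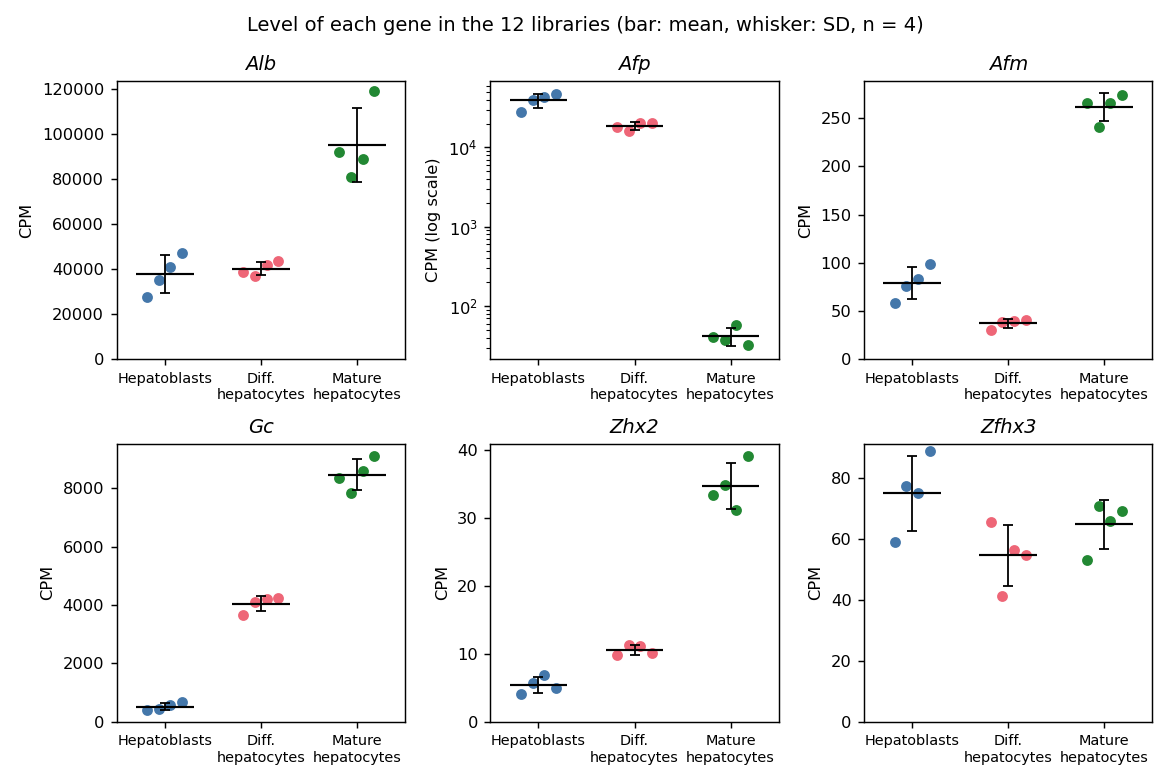
CPM of Alb, Afp, Afm, Gc, Zhx2 and Zfhx3 in the 4 libraries of each group (points in the order of the replicates), with the mean and SD. The Afp axis is logarithmic and the others start at 0. Afp falls to 32.0 to 58.1 CPM among mature hepatocytes, whereas Alb, Afm, Gc and Zhx2 are highest there and the 3 groups of Zfhx3 overlap.

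The comparisons asked how far cells differentiated in culture had moved from hepatoblasts towards mature hepatocytes. A call required a log2 fold change beyond 1 in either direction together with p under 0.01 in edgeR's quasi-likelihood test, adjusted by Benjamini-Hochberg over the 17779 genes. In mature hepatocytes against hepatoblasts, 5 of the 6 genes were called, with Alb, Afm, Gc and Zhx2 higher and Afp lower, beside 44.8% of all genes tested, 20.1% higher and 24.7% lower. In Diff. hepatocytes against hepatoblasts, 3 of the 6 were called, with Gc higher and Afp and Afm lower, beside 28.9% of all genes, 14.9% higher and 14% lower. In Diff. hepatocytes against mature hepatocytes, 5 of the 6 were called, with Afp higher and Alb, Afm, Gc and Zhx2 lower, beside 35.8% of all genes, 20.2% higher and 15.6% lower. Every library of one group lay beyond every library of the other for 5, 4 and 5 of the 6 genes in these comparisons, beside 66%, 57.5% and 61.6% of all genes. The comparisons share their groups of libraries and are not independent of each other.

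Afp was among the most abundant transcripts of hepatoblasts and far lower, though still detected, in mature hepatocytes, with the cultured cells much closer to the hepatoblasts. The hepatoblast libraries held 27580, 40063, 43220.5 and 46486 CPM of Afp, a mean of 39337 ± 8265 CPM (SD, n = 4). The Diff. hepatocyte libraries held 17919, 15959, 20138 and 20419 CPM, all below the lowest hepatoblast library. The mature hepatocyte libraries held 41.1, 37.8, 58.1 and 32.0 CPM, from 516 to 996 counts per library, and lay far below both other groups. Afp was thus 2.11-fold lower in Diff. hepatocytes than in hepatoblasts, a log2 fold change of -1.08 with an SE of 0.21 (adjusted p = 6.18e-04). This value lies just past the fold threshold, and without hepatoblast replicate 4 it was -0.99 and no longer called. In mature hepatocytes Afp was 930-fold lower than in hepatoblasts, with a log2 fold change of -9.86 and an SE of 0.30 (adjusted p = 1.27e-11). Diff. hepatocytes held 440-fold more Afp than mature hepatocytes (log2 fold change 8.78, SE 0.29, adjusted p = 4.63e-11).

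Alb was already abundant in hepatoblasts and was highest in the adult cells. It stood at 27765, 35021, 41079 and 47162 CPM in the hepatoblast libraries and at 38596, 36999, 41824 and 43484 CPM in the Diff. hepatocyte libraries. These groups overlapped, and the log2 fold change of 0.09 with an SE of 0.20 did not pass the test (adjusted p = 0.709). Its sign was negative without hepatoblast replicate 1 (-0.021) and with library totals in place of TMM (-0.22). The mature hepatocyte libraries held 92078, 81003, 88684 and 118984 CPM, all above the other 8 libraries. Alb was thereby 2.52-fold higher than in hepatoblasts (log2 fold change 1.33, SE 0.20, adjusted p = 4.28e-05). With library totals, which moved the median of all genes by -0.85 on the log2 scale in this comparison, its fold change was 0.49 and was not called. Counting library totals, 3 alternative settings did not call it, at log2 fold changes from 0.49 to 1.33. Against mature hepatocytes, Alb in Diff. hepatocytes differed by a log2 fold change of -1.24 with an SE of 0.20 (adjusted p = 1.03e-04).

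Afm, the next gene downstream of Afp, had its lowest level in the cultured cells. Its libraries read 58.2, 76.2, 83.4 and 98.8 CPM among hepatoblasts and 30.2, 38.4, 39.4 and 40.2 CPM among Diff. hepatocytes, without overlap. In mature hepatocytes they read 266, 240.4, 266 and 274 CPM, above all other libraries. Afm fell by 1.10 on the log2 scale in Diff. hepatocytes against hepatoblasts (SE 0.14, adjusted p = 2.24e-05) and rose by 1.72 in mature hepatocytes against hepatoblasts (SE 0.14, adjusted p = 1.49e-07). The fall was -0.98 and not called without hepatoblast replicate 4, and the rise was 0.88 and not called with library totals. Diff. hepatocytes lay below mature hepatocytes by a log2 fold change of -2.82 with an SE of 0.15 (adjusted p = 3.93e-09).

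Gc was lowest in hepatoblasts, higher after culture and highest in the adult cells. It stood at 395, 441, 578 and 666 CPM among hepatoblasts and at 3653, 4111, 4191 and 4237 CPM among Diff. hepatocytes. Mature hepatocytes held 8359, 7851, 8589.8 and 9093 CPM, and no 2 groups overlapped. Gc was 7.79-fold higher in Diff. hepatocytes than in hepatoblasts (log2 fold change 2.96, SE 0.17, adjusted p = 1.12e-08). It was 16.3-fold higher in mature hepatocytes than in hepatoblasts (log2 fold change 4.03, SE 0.18, adjusted p = 3.03e-10). The remaining distance between Diff. and mature hepatocytes was a log2 fold change of -1.07 with an SE of 0.16 (adjusted p = 5.01e-05), and with library totals it was -0.54 and not called.

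Of the repressors, Zhx2 was called in both comparisons with mature hepatocytes and Zfhx3 in none of the comparisons. Zhx2 read 4.13, 5.73, 6.83 and 4.97 CPM among hepatoblasts, from 128 to 211 counts per library, and 9.86, 11.3, 11.1 and 10.1 CPM among Diff. hepatocytes. All 4 Diff. hepatocyte libraries lay above all hepatoblast libraries. The difference, a log2 fold change of 0.97 with an SE of 0.14 (adjusted p = 5.83e-05), was just under the fold threshold and passed it without hepatoblast replicate 3 (1.09) or without Diff. hepatocyte replicate 1 (1.00). In mature hepatocytes Zhx2 reached 33.3, 34.8, 31.2 and 39.1 CPM, and it was 6.38-fold higher than in hepatoblasts (log2 fold change 2.67, SE 0.14, adjusted p = 2.10e-09). Diff. hepatocytes lay below mature hepatocytes by a log2 fold change of -1.71 with an SE of 0.14 (adjusted p = 1.96e-07).

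Zfhx3 did not pass the test in any comparison. Its libraries read 58.9, 77.3, 75.2 and 89.0 CPM among hepatoblasts, 65.7, 41.4, 56.6 and 54.9 CPM among Diff. hepatocytes and 53.2, 70.9, 66.1 and 69.2 CPM among mature hepatocytes. Each pair of groups overlapped. The log2 fold change was -0.46 with an SE of 0.15 in Diff. hepatocytes against hepatoblasts (adjusted p = 0.0183) and -0.21 with an SE of 0.15 in mature hepatocytes against hepatoblasts (adjusted p = 0.221). Diff. against mature hepatocytes gave -0.25 with an SE of 0.15 (adjusted p = 0.169), and the sign of this value turned with library totals (0.28). With library totals the value in mature hepatocytes against hepatoblasts was -1.05 and was called lower.

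Levels of different genes were compared per kilobase of exon. In hepatoblasts the order was Alb with 16122 ± 3545 CPM per kb, Afp with 11680 ± 2454, Gc with 282 ± 67.6, Afm with 26.1 ± 5.55, Zfhx3 with 3.58 ± 0.590 and Zhx2 with 1.22 ± 0.259 (SD, n = 4). The ranges of Alb and Afp overlapped, and with the length of the longest coding transcript Afp came ahead of Alb. In Diff. hepatocytes the order was unchanged, with 17176 ± 1263 CPM per kb for Alb, 5525 ± 621 for Afp, 2194 ± 146 for Gc and 12.2 ± 1.53 for Afm, and only Zfhx3 (2.60 ± 0.477) and Zhx2 (2.39 ± 0.166) overlapped. In mature hepatocytes Afp dropped to the fourth place with 12.6 ± 3.33 CPM per kb, behind Alb (40643.5 ± 7057), Gc (4593 ± 279.5) and Afm (86.1 ± 4.82). Zhx2 at 7.81 ± 0.758 CPM per kb then exceeded Zfhx3 at 3.09 ± 0.381, the reverse of their order in hepatoblasts, and neither overlapped its neighbour in that order.

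Ratios within a library do not depend on the scaling between libraries. The log2 ratio of Afp to Alb per kb was -0.53, -0.33, -0.45 and -0.54 in the hepatoblast libraries and -1.63, -1.74, -1.58 and -1.61 in the Diff. hepatocyte libraries. It was -11.65, -11.59, -11.10 and -12.38 in the mature hepatocyte libraries. No groups overlapped. The ratio was 2.26-fold lower in Diff. hepatocytes than in hepatoblasts and 2379-fold lower in mature hepatocytes than in hepatoblasts. Diff. hepatocytes exceeded mature hepatocytes in it by 1053-fold. Each difference had a two-sided exact permutation p of 0.0286 over the 70 assignments of 8 libraries (n = 4 per group), the smallest that this design allows, and the same value after adjustment over the 3 comparisons.

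The other ratios are given as descriptions. The log2 ratio of Gc to Alb per kb went from -5.84 ± 0.084 in hepatoblasts to -2.97 ± 0.101 in Diff. hepatocytes and stood at -3.13 ± 0.162 in mature hepatocytes (SD, n = 4), the last groups overlapping. Afp to Afm had similar ratios in hepatoblasts (log2 8.81 ± 0.084) and Diff. hepatocytes (8.83 ± 0.211), with overlapping libraries, and a ratio of -2.81 ± 0.370 in mature hepatocytes. Zhx2 relative to Zfhx3 went from -1.56 ± 0.289 in hepatoblasts to -0.11 ± 0.360 in Diff. hepatocytes and 1.34 ± 0.188 in mature hepatocytes, without overlap between any groups.

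**Figure D2:**
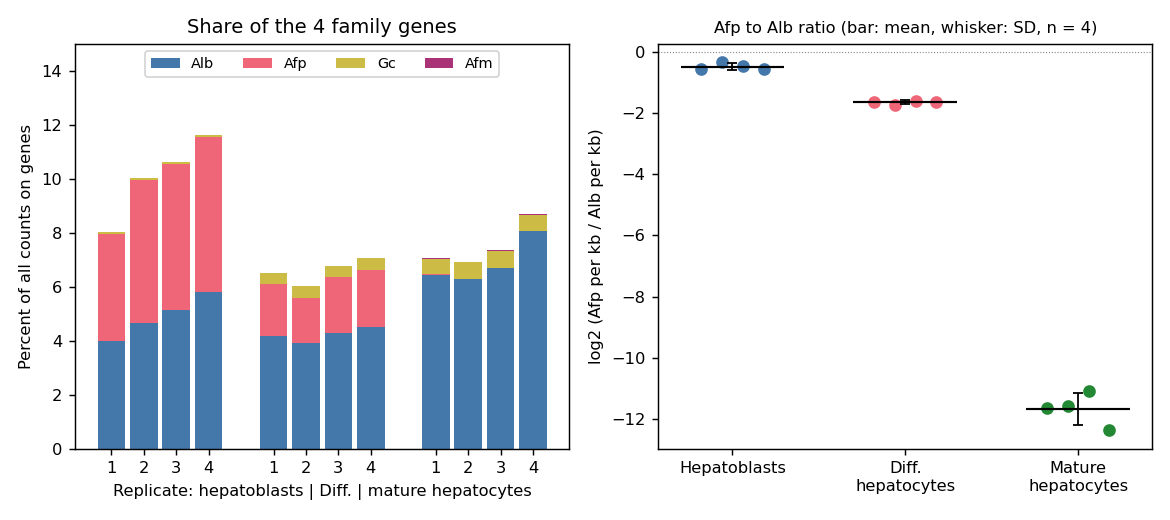
Left, the percent of all counts on genes taken by Alb, Afp, Gc and Afm in each of the 12 libraries, as stacked bars from 0. Right, the log2 ratio of Afp to Alb per kb in each library with the mean and SD. Alb and Afp fill similar parts of the hepatoblast bars, and Afp cannot be seen in the mature hepatocyte bars, where the ratio lies between -12.38 and -11.10.

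The 4 family genes together took 10.1% ± 1.52 of all counts on genes in hepatoblasts, then 6.59% ± 0.443 after culture and 7.51% ± 0.808 in mature hepatocytes (SD, n = 4). Afp took 5.11% ± 0.777 of the hepatoblast counts, 1.95% ± 0.193 of the Diff. hepatocyte counts and 0.00309% ± 0.000928 of the mature hepatocyte counts. Among all genes ranked by counts, Alb held rank 1 or 2 in every library. Afp held rank 1 or 2 in hepatoblasts, rank 5 in each Diff. hepatocyte library and ranks 3024 to 4929 in mature hepatocytes. Gc climbed from ranks 101 to 166 in hepatoblasts to ranks 22 to 28 in Diff. hepatocytes and ranks 14 to 18 in mature hepatocytes.

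The wider families were read from the same fit. Of the Zhx and Zfhx families, 1 of 6 genes was higher in Diff. hepatocytes and 3 of 6 in mature hepatocytes, each against hepatoblasts. Among all genes tested, 14.9% and 20.1% were higher. The medians of the families were 0.51 and 1.32 on the log2 scale, beside -0.01 and -0.15 over all genes tested. Zhx3, which pairs with Zhx2, rose from 22.0 ± 2.47 CPM among hepatoblasts to 134 ± 22.2 CPM among Diff. hepatocytes and 160.5 ± 21.7 CPM among mature hepatocytes (log2 fold changes against hepatoblasts 2.60 and 2.87). Zhx3 thus passed the test in the cultured cells, and its level there overlapped that of mature hepatocytes. Zhx1 had log2 fold changes of -0.27 and 0.69, neither called. Zfhx2 was called higher in mature hepatocytes (1.95), and Zfhx4 stayed at 29.3 ± 5.96, 32.7 ± 5.21 and 29.9 ± 5.6 CPM in the 3 groups, without a call.

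Of 8 genes reported as repressors of Afp, Zhx2 and Zfhx3 included, 3 were higher and 0 lower in Diff. hepatocytes than in hepatoblasts, and 6 were higher and 1 lower in mature hepatocytes. The medians were 0.63 and 2.35 on the log2 scale, beside -0.01 and -0.15 over all genes tested, of which 28.9% and 44.8% were called. Zbtb20, a zinc finger repressor of Afp in the postnatal liver, read 17.2, 18.1, 18.2 and 23.8 CPM among hepatoblasts, 62.1, 62.9, 60.4 and 54.8 CPM among Diff. hepatocytes and 388, 390.3, 285 and 353 CPM among mature hepatocytes. No groups overlapped, and its log2 fold changes against hepatoblasts were 1.64 (SE 0.13, adjusted p = 1.70e-07) in Diff. and 4.196 (SE 0.14, adjusted p = 2.34e-11) in mature hepatocytes.

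The nuclear factor I genes, whose products bind the Afp promoter, all rose in mature hepatocytes against hepatoblasts. Nfix had the highest log2 fold change of the list there at 4.39, from 11.7 ± 3.08 CPM among hepatoblasts to 246 ± 39.0 CPM, and Nfia, Nfib and Nfic had 2.17, 1.36 and 2.54. In Diff. hepatocytes against hepatoblasts only Nfia (1.37) and Nfix (1.25) of these passed the test, while Nfib and Nfic had 0.30 and 0.29. Nfix in hepatoblasts was highest in replicate 1, at 16.3 CPM against 10.1 to 10.3 CPM in the others. Trp53, which encodes p53 and has been reported to repress Afp, was the one gene of the list that fell in mature hepatocytes (-1.97), and it had -0.45 in Diff. hepatocytes, not called. In Diff. hepatocytes against mature hepatocytes, 5 of the 8 were lower and 1, Trp53, was higher. Of all genes tested, 35.8% were called in that comparison, 15.6% lower and 20.2% higher. The median of the list was -1.39 there, beside 0.09 over all genes tested.

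**Figure D3:**
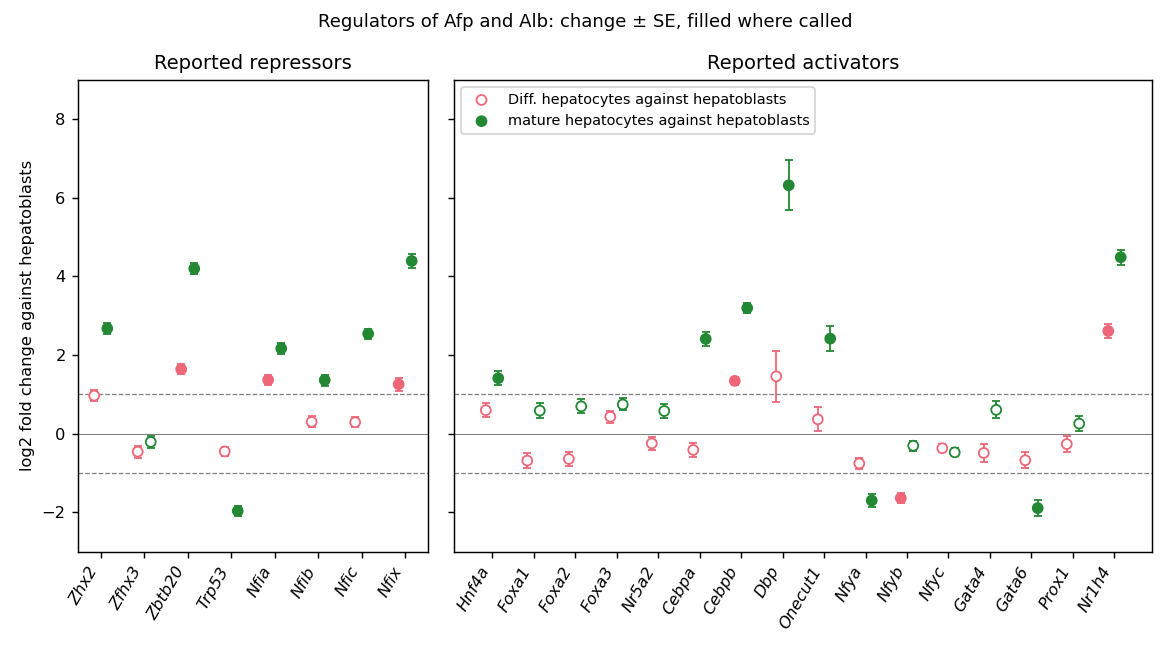
Log2 fold change with its SE against hepatoblasts for 8 reported repressors and 16 reported activators of Afp or Alb, in Diff. hepatocytes and mature hepatocytes. Filled points were called, open points were not, and dashed lines mark the fold threshold of 1. The repressors called in mature hepatocytes lie above 1 apart from Trp53 at -1.97, and most activators in Diff. hepatocytes are open points between the dashed lines.

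Of 16 genes reported to activate the Alb or Afp promoter or enhancers, 2 were higher and 1 lower in Diff. hepatocytes than in hepatoblasts, and 6 were higher and 2 lower in mature hepatocytes. The medians were -0.32 and 0.65 on the log2 scale, beside -0.01 and -0.15 over all genes tested, of which 28.9% and 44.8% were called. Hnf4a, a nuclear receptor of hepatocyte identity, had 0.60 in Diff. hepatocytes, not called, and rose by 1.41 in mature hepatocytes (adjusted p = 7.71e-06). Foxa1, Foxa2 and Foxa3, of the family that opens the Alb enhancer early in liver development, were not called against hepatoblasts, and Foxa1 and Foxa2 were lower in Diff. than in mature hepatocytes (-1.27 and -1.34).

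Among the activators of the C/EBP and PAR families, 1 was called in the cultured cells and 3 in the adult cells. Cebpa, a factor of the mature hepatocyte that binds the Alb promoter, was at 150.3 ± 34.2 CPM among hepatoblasts, 113 ± 7.0 CPM among Diff. hepatocytes and 797 ± 175 CPM among mature hepatocytes. It was not called in Diff. hepatocytes (-0.42) and rose by 2.41 in mature hepatocytes (SE 0.18, adjusted p = 4.59e-08). Its relative Cebpb rose in both (1.34 and 3.19). Dbp, a clock-controlled factor named after the Alb promoter element it binds, had 0.838 to 1.10 CPM among hepatoblasts and 24.9, 122, 24.9 and 159 CPM among mature hepatocytes, so the adult libraries fell into a low and a high pair. Nr1h4, the bile acid receptor FXR, rose in both groups (2.61 and 4.48). Nfyb, a subunit of the factor that binds CCAAT, was the gene that fell in Diff. hepatocytes (-1.64). Nfya, another subunit, and Gata6 fell in mature hepatocytes (-1.70 and -1.89).

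Other genes reported to respond to Zhx2 moved in different directions in the culture. Of 6 listed, 2 were higher and 1 lower in Diff. hepatocytes than in hepatoblasts, and 2 were higher and 3 lower in mature hepatocytes. Their medians were 0.98 and -1.59 on the log2 scale. All genes tested had medians of -0.01 and -0.15, with 28.9% and 44.8% called. H19, an imprinted non-coding RNA, read 10392, 14140.3, 18040.1 and 17104 CPM among hepatoblasts, 19222, 24537, 23295 and 21883 CPM among Diff. hepatocytes and 28.7 to 41.2 CPM among mature hepatocytes. It fell by 8.79 in mature hepatocytes against hepatoblasts (SE 0.26, adjusted p = 8.43e-12), while its value in Diff. hepatocytes was 0.58 and not called. Gpc3, a membrane proteoglycan of fetal liver and liver cancer, fell in Diff. hepatocytes (-1.75) and in mature hepatocytes (-9.64). H19 and Gpc3 are also among the hepatoblast markers counted above. Lpl, which encodes lipoprotein lipase, rose in Diff. hepatocytes (1.27) and fell in mature hepatocytes (-4.38). Elovl3, a fatty acid elongase, had at most 3 counts in any library of hepatoblasts and Diff. hepatocytes and 1211 to 10085 counts in mature hepatocytes. The remaining genes, Cyp2a4 and Cyp4a12a, have close paralogs that can split reads, so their values are uncertain. They are included in the counts and medians of the list, where Cyp2a4 is 1 of the 2 higher genes in Diff. hepatocytes (2.80) and Cyp4a12a 1 of the 2 in mature hepatocytes.

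Gc acts in the vitamin D pathway, in which liver hydroxylases prepare the form that Gc carries and kidney receptors recover it. Of 8 tested genes of vitamin D handling, 3 were higher and 1 lower in Diff. hepatocytes than in hepatoblasts. In mature hepatocytes, 3 were higher and 4 lower. Their medians were 0.90 and -0.74, beside -0.01 and -0.15 over all genes tested, of which 28.9% and 44.8% were called. Cyp24a1, which breaks the hormone down, did not pass the filter. Cyp27a1 and Cyp2r1, which add the hydroxyl group made in the liver, rose by 6.55 and 3.8 in mature hepatocytes, and Cyp27a1 also rose by 3.66 in Diff. hepatocytes while Cyp2r1 had 0.86, not called. Rxra, the partner of the vitamin D receptor, rose in both (1.69 and 2.91). Gsn, which encodes gelsolin, the other actin scavenger of plasma, fell in both (-3.59 and -7.42). Vdr, the receptor itself, had at most 19 counts in any library, and Cyp27b1 at most 13. Of the 4 lower genes in mature hepatocytes, Vdr, Cyp27b1 and Cubn had at most 1 count in any library of that group.

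Afm and Alb were set beside genes of the same tasks. Of 7 genes of vitamin E handling, 3 were higher and 0 lower in Diff. hepatocytes and 4 were higher and 1 lower in mature hepatocytes, with medians of 0.54 and 1.07. Ttpa, the liver's alpha-tocopherol transfer protein, rose from 26.3 ± 5.76 CPM among hepatoblasts to 223 ± 40.4 CPM among Diff. hepatocytes and 392 ± 79.3 CPM among mature hepatocytes (log2 fold changes 3.08 and 3.90). Afm thus fell in the cultured cells where Ttpa rose. Of 6 genes of albumin recovery, 2 were higher and 1 lower in Diff. hepatocytes, and 2 were higher and 2 lower in mature hepatocytes. Their medians were 0.40 and 0.60. Beside both of these lists, all genes tested had medians of -0.01 and -0.15, with 28.9% and 44.8% called. Fcgrt and B2m, which encode the subunits of the receptor that returns albumin to the blood, rose in mature hepatocytes (2.52 and 2.49) and were not called in Diff. hepatocytes (0.58 and 0.22). The 2 higher genes in Diff. hepatocytes were Lrp2 (20.5 to 94.8 CPM) and Cav1 (8.87 to 40.1 CPM), both uneven between the libraries of that group. Lrp2 is also counted among the higher genes of vitamin D handling.

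Other plasma carriers served as a comparison for the family. Of 12 listed, 8 were higher and 1 lower in Diff. hepatocytes than in hepatoblasts, and the same numbers held in mature hepatocytes. Their medians were 2.09 and 1.72, beside -0.01 and -0.15 over all genes tested, of which 28.9% and 44.8% were called. Hp, which encodes the hemoglobin carrier haptoglobin, rose by 7.23 and 6.27 in Diff. and mature hepatocytes, and Ahsg, which encodes fetuin-A, rose by 3.14 and 1.83. Ttr, which encodes the thyroid hormone and retinol carrier transthyretin, resembled Afm, with -0.88 in Diff. hepatocytes, not called, and a rise of 2.01 in mature hepatocytes. Serpina6, which encodes the glucocorticoid carrier of plasma, fell from 4437 ± 916 CPM among hepatoblasts to 7.34 ± 1.49 CPM among Diff. hepatocytes and 240.1 ± 132 CPM among mature hepatocytes (-9.24 and -4.21).

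The genes around the tandem block of Alb, Afp and Afm were then examined. Albfm1 (ENSMUSG00000070690), a family gene that starts 7.564 kb after the end of Afm, read 2.64, 3.61, 4.11 and 5.04 CPM among hepatoblasts and 2.55, 3.06, 3.46 and 3.40 CPM among Diff. hepatocytes. It read 70.6, 54.2, 55.9 and 63.9 CPM among mature hepatocytes, where it was 15.9-fold higher than in hepatoblasts (log2 fold change 3.99, SE 0.18, adjusted p = 4.10e-10). Of the 4 genes in tandem, 3 were therefore highest in mature hepatocytes and Afp, between Alb and Afm, was lowest there. Rassf6, Ankrd17 and Cox18, outside the block, had log2 fold changes between -0.54 and 0.82 against hepatoblasts and were not called in any comparison. Gm9958 was at 0.401 CPM among hepatoblasts and was not called either. Ppbp, a platelet chemokine gene 214.975 kb away, was called lower in mature hepatocytes, at 0.0317 CPM against 8.39 CPM among hepatoblasts.

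**Figure D4:**
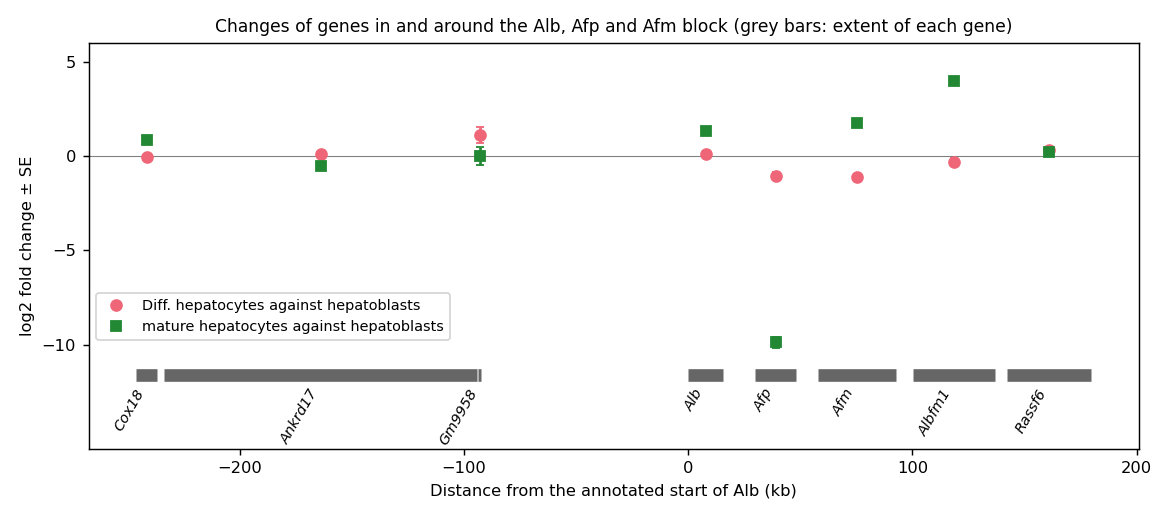
Log2 fold change with its SE against hepatoblasts of the genes in and around the Alb, Afp and Afm block, in Diff. hepatocytes and mature hepatocytes, drawn at the middle of each gene by its distance from the start of Alb in kb. Grey bars show the extent of the genes, and Ppbp is left out. Afp at -9.86 lies between Alb at 1.33 and Afm at 1.72 in mature hepatocytes, and Albfm1 is at 3.99. With library totals in place of TMM, Alb and Afm are at 0.49 and 0.88.

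Next to Gc, Slc4a4, a bicarbonate transporter gene 177.869 kb away, rose in mature hepatocytes against hepatoblasts (2.01). Adamts3, 219.189 kb away on the other side, fell in Diff. hepatocytes (-1.94) and was called lower in mature hepatocytes, where it was near 0 (0.031 CPM). Dck, farther out on the side of Slc4a4, fell in both (-2.21 and -2.71), and Mob1b beyond it was not called. Next to Zhx2, Derl1, a gene of the endoplasmic reticulum 29.67 kb away, rose in both (1.33 and 1.05). Of the other genes there, Mtbp fell in both (-1.29 and -3.21) and Fam83a fell in Diff. hepatocytes (-3.42). Has2, with at most 15 counts among hepatoblasts, was called lower in mature hepatocytes (-3.83). Sntb1 and Tbc1d31 were not called. The genes nearest to Zfhx3 on each side, Psmd7 and Dhx38, had log2 fold changes between -0.47 and -0.10 and were not called against hepatoblasts. Farther out, Nob1 was called lower in mature hepatocytes (-1.25), and Hp, described above, rose in both (7.23 and 6.27). Wwp2 and Txnl4b were not called.

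The genes whose log2 CPM followed each gene most closely over the 12 libraries, among 8696 genes with a mean of at least 10 CPM, are named as a description. The 12 points share 3 groups, so any gene whose group means have a similar order and spacing on the log2 scale scores high. Afp was followed by Nck2 (Pearson r = 0.998), Greb1l (0.998) and Igf2os (0.997), and Gc by Baat (0.998), Uox (0.997) and Pbld1 (0.996). Alb was followed by Clpb (0.986), Anks4b (0.985) and Ptprg (0.985), and Afm by Skiv2l (0.995), Ebpl (0.995) and Uroc1 (0.995). Zhx2 was followed by Slc17a5 (0.994), Trabd (0.994) and Tmem243 (0.993). Zfhx3 had no gene above 0.95, its closest being Commd2 (0.887), Arf3 (0.875) and Ifngr2 (0.870), whereas the other genes had between 317 and 770 such genes.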

How the data were processed

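Bulk poly(A) RNA was measured as 75-base single reads. The authors checked reads with FastQC 0.11.2, mapped them with STAR 2.5.2b to GRCm38 and counted them on Ensembl release 92 genes. Picard 2.10.2 and DESeq2 1.22.2 are also named in the submitters' notes. The deposited table holds these raw counts. Preparation was strand-specific, the strand setting of counting is not given in the sources used here, and reads carry no molecular identifiers. Gene positions and exon lengths came from GENCODE M21 (53620 identifiers found) and promoters from RefSeq.

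Libraries were grouped by their titles. Genes exceeding 10 counts in some library were fitted over 12 libraries in R 4.3.3 with edgeR 4.0.16 (TMM, quasi-likelihood test, group as only term, Benjamini-Hochberg). The SE is the log2 fold change divided by the square root of F. A prior count of 2 went into log2 CPM. Counts differed between libraries of a group by more than sampling noise (chi-square per gene 6.47 to 99.9), so errors are between replicates. Biological replicates are named as such by the authors.

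The members and gene lists were chosen with earlier results of these data known. In the lists, 2 genes are not reported here and were left out of the counts and sums. Genes named are members, genes of the lists, the 3 closest by correlation and the 3 nearest tested genes on each side. Alternatives were DESeq2 1.42.0, glmTreat, other scalings, filters, a replicate block, fits of 8 libraries and fits without each replicate.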

Additional observations from a re-analysis of the deposited data

Results flagged for a closer look

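Of 162 groups of 4 libraries examined by Dixon's test, 13 held a library far from the other replicates, where chance at this level gives about 1 in 20, or 8.1. In hepatoblasts, replicate 1 stood apart for Zfhx4 (20.4 CPM against 31.7 to 32.8), Nfix (16.3 against 10.1 to 10.3), Nr5a2 (43.3 against 67.6 to 72.5) and Dbp (0.838 against 1.09 to 1.10). Replicate 1 also held the highest erythroid, macrophage and endothelial marker sums of its group, whose part in these values was not tested. Replicate 4 stood apart for Zbtb20 (23.8 against 17.2 to 18.2 CPM) and replicate 2 for the log2 ratio of Gc to Alb (-5.97 against -5.81 to -5.79).

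In Diff. hepatocytes, replicate 1 stood apart for Cubn, a receptor for Gc (10.5 against 2.11 to 2.76 CPM), for the retinol carrier gene Rbp4 (3561 against 4543 to 4643 CPM) and for Elovl3, which is near 0 there (0.130 against 0.0430 to 0.0493 CPM). This library held the highest mesenchymal and bile duct marker sums of its group. In mature hepatocytes, replicate 1 stood apart for Rassf6 (9.74 against 14.47 to 14.8 CPM) and for Cubn, with 0 CPM against 0.0584 to 0.0642 CPM, a difference of at most 1 count. Replicate 4 stood apart for Rbp4 (4378 against 3347 to 3472 CPM) and for the log2 ratio of Afm to Alb (-9.14 against -8.81 to -8.76).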

How the results depend on the processing

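Across the alternatives, the lowest and highest log2 fold changes kept their sign for Afp, Afm, Gc and Zhx2 in all 3 comparisons. In Diff. hepatocytes against hepatoblasts, 3 of 6 genes were called, 1 when the fold threshold was part of the test (glmTreat), 5 at an adjusted p under 0.05 without a fold threshold, and 1 to 4 when a replicate was left out, the 1 being without hepatoblast replicate 4. In Diff. against mature hepatocytes, 5 were called, but 3 with glmTreat, 3 with library totals and 3 with totals that leave out the 50 most abundant genes, where Alb and Gc were lost each time. In mature hepatocytes against hepatoblasts, 5 were called, and 4 or 5 over the alternatives, with Alb not called in 3 of them. Leaving out a replicate kept 5 in both comparisons with mature hepatocytes. The sign of Alb in Diff. hepatocytes against hepatoblasts turned with library totals (-0.22), with totals without the 50 genes (-0.012) and without hepatoblast replicate 1 (-0.021, the fits without a replicate reaching 0.212). That of Zfhx3 in Diff. against mature hepatocytes turned with both totals (0.28 and 0.31). Library totals moved the median of all genes by -0.32, -0.85 and 0.53 on the log2 scale in the 3 comparisons. Causes were not tested. Libraries of the same replicate number were not regularly the closest (correlations of same-numbered deviations -0.08 to 0.32, the best match in 4 of 12 cases). Between hepatoblasts and Diff. hepatocytes they were the best match in 2 of 4 cases, at -0.06 to 0.32. Whether such libraries share an isolation is not given and was not tested. With a replicate block 3, 5 and 5 genes were called, as without it, and the ratio of Afp to Alb differed by -1.18, -11.22 and 10.04 at an exact permutation p of 0.125 each, the smallest for 4 pairs. No technical batch is named, and Zhx2 in hepatoblasts rests on 128 to 211 counts per library.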
